A study of Mus musculus with 12 samples.

Results

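Interleukin-6 family signalling through STAT3, and the acute phase genes it serves, were followed in the hearts of mice given carbon tetrachloride (CCl4), which injures the liver and over time makes it cirrhotic. The set holds 10 genes listed by name (Serpina3n, Lcn2, C3, Osmr, Il6st, Il6ra, Stat3, Socs3, Cebpb and Bcl3), all of them present among the 31722 gene symbols of the table. Heart tissue of C57BL/6J mice was taken at the end of the treatment from 6 Control mice and 6 CCl4 mice, and the question put by the study is how a cirrhotic liver affects cardiac function. The labels give no dose, route, duration, age or sex, and do not say what the Control mice received or which part of the heart was taken. Levels are RPKM, in which reads are divided by the length of the gene and by library size, so that genes can be compared with each other. In hearts of the CCl4 group Serpina3n was at 7.63 ± 10.2 RPKM against 0.911 ± 0.875 RPKM in Control hearts (SD, n = 6 each), and no member passed the test. CCl4 replicate 3 held the highest value of all 12 hearts in 9 of the 10 genes. Of the 8 members high enough to be tested, 7 lay above their highest Control value in it, as did 45.1% of all genes tested. When hearts were rescaled by median-of-ratios 5 of these 8 did, and 24.2% of all genes tested.

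In this pathway a ligand of the interleukin-6 family binds its own receptor chain and the shared chain gp130, encoded by Il6st. Janus kinases on the receptor then phosphorylate STAT3, which enters the nucleus and switches on target genes, among them its own brake Socs3 and the transcription factors Cebpb and Bcl3. In the liver this drives the acute phase response, in which proteins such as haptoglobin, fibrinogen and complement C3 are secreted into blood. In the heart the family is known for hypertrophic growth and protection of cardiomyocytes, and for a role in fibroblasts.

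The libraries held between 26254305 (Control replicate 6) and 63091439 (CCl4 replicate 4) steps of the RPKM scale, where a step is the smallest unit the values move by. What 1 step is worth in reads is not known, so depth is relative, and more steps mean less counting error. Summed cardiomyocyte markers (Myh6, Actc1, Tnnt2, Tnni3, Myl2 and Ryr2) ran from 25200 to 31600 RPKM in the Control group and from 18000 to 27700 RPKM in the CCl4 group. Albumin (Alb), the defining marker of hepatocytes, was at no more than 0.187 RPKM in any CCl4 heart and 0.145 RPKM in any Control heart. Other genes of the hepatocyte list were higher, above all Cyp2e1 and Ahsg (10.5 and 6.78 RPKM in Control replicate 1, 9.92 and 4.37 RPKM in CCl4 replicate 4), and the list sum ran from 2.05 to 18 RPKM (Control) and from 1.93 to 15.1 RPKM (CCl4). CCl4 replicate 3 stood apart from the rest, with 45.1% of the 14087 genes tested above their highest Control value. Control replicate 1 and CCl4 replicate 4 had the most atrial marker RNA (15100 and 11700 RPKM for the sum of Myl7, Myl4, Sln, Bmp10, Nppa and Nr2f2). Most of each sum was Nppa (14200 and 11100 RPKM), and Myl7 was highest in the same 2 hearts (419 and 307 RPKM). In CCl4 replicates 3 and 6 Nppa was at 9550 and 6670 RPKM but Myl7 at 28.7 and 0.811 RPKM. Relations and the covariate below use the mean log2(RPKM + 1) of the list, Nppa included. In bulk tissue fewer cells of a type and less RNA per cell cannot be told apart.

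STAT factors recognise the palindrome TTCNNNGAA. The promoter stretches that hold it are shown because they show which members carry the letters next to their RefSeq start. RefSeq windows on GRCm38.p6, which run from upstream of each gene's start to just past it, were matched for all 10 members. The motif reads the same on both strands and was in 1 of the 10 windows, that of Socs3, and in 8.3% of 32851 windows of the table. In Socs3 it begins 154 bases upstream of the RefSeq start. The GENCODE span of Socs3 (chromosome 11, 117966079 to 117970047) reaches farther upstream, so by that annotation the stretch lies inside the gene. A C/EBP motif (TTGCNNCAA, either strand) was in 0 members and 2.08% of all windows, and the NF-kB (kappa B) motif, on either strand, in 0 members and 4.59% of all windows. Serpina3n lies in a cluster of closely related genes on chromosome 12, and 3 of these neighbours, Serpina3f, Serpina3g and Serpina3i, hold the STAT motif upstream of their start. The stretch of the Serpina3n window closest to that of Serpina3i differs from it at 6 of 29 bases, 1 of them within the 9 bases of the motif. Each stretch is printed 5′ to 3′ on the gene's strand, with the motif, or the bases aligned to it, in capitals.
Socs3 (minus strand, chr11:117969502-117969530): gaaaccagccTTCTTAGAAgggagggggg
Serpina3f (plus strand, chr12:104214413-104214441): tcagttctatTTCCTAGAAatcacccatt
Serpina3g (plus strand, chr12:104236104-104236132): taagttatagTTCCCAGAAatcacccggt
Serpina3i (plus strand, chr12:104263010-104263038): taagtgcttgTTCCCAGAAatcacccagt
Serpina3n (plus strand, chr12:104406575-104406603): caaatccatgTTACCAGAAatcatccagt
A match is a description of letters and not of binding, and a window without one says only that these letters are not in it. In the same cluster Serpina3g was at 0.0958 to 0.74 RPKM and Serpina3f and Serpina3i at no more than 0.336 RPKM in any heart. Serpina3n was thus the only one of the 9 cluster genes in the table high enough for the main test. Serpina3f was at 0 to 0.0604 RPKM in Control and 0.066 to 0.281 RPKM in CCl4 hearts, without overlap (exact permutation p = 0.00216, unadjusted). Its values rested on 0 to 33 steps. Groups overlapped in Serpina3h (exact permutation p = 0.0498), Serpina3g (exact permutation p = 0.141) and Serpina3i (exact permutation p = 0.186). Near-identical copies can share reads, so the split of reads among these genes is uncertain.

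Genes were tested where they reached 0.5 RPKM in at least 6 hearts, which 8 of the 10 members did; Lcn2 and Il6ra did not. With limma, fitted to log2(RPKM + 1) over all 14087 genes, 0 of the 8 passed at a Benjamini-Hochberg adjusted p under 0.05, and 0 of 14087 genes did (0.0%). At an unadjusted p under 0.05 there was 1 of 8 members, Serpina3n, against 1435 of all genes (10.2%; 1.6% higher and 8.58% lower). A rank-sum test over the same genes gave 0 members and 0 genes after adjustment, where 1269 genes and 0 members were at an unadjusted p under 0.05. Of the 8 members 5 lay higher and 3 lower in CCl4 hearts, with a median log2 fold change of 0.015, where the median of all genes was -0.048. Under TPM scaling (values of each heart rescaled to a common sum) this split was 3 higher and 5 lower, and the median of all genes -0.102. As deposited 65.7% of all genes tested lay lower in CCl4 hearts, and the splits of the gene lists below are to be read beside that share. For counts of CCl4 mice above or below the Control median no share over all genes was computed. In 0 of the 8 did the 2 groups not overlap, against 0.76% of all genes.

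**Figure D1:**
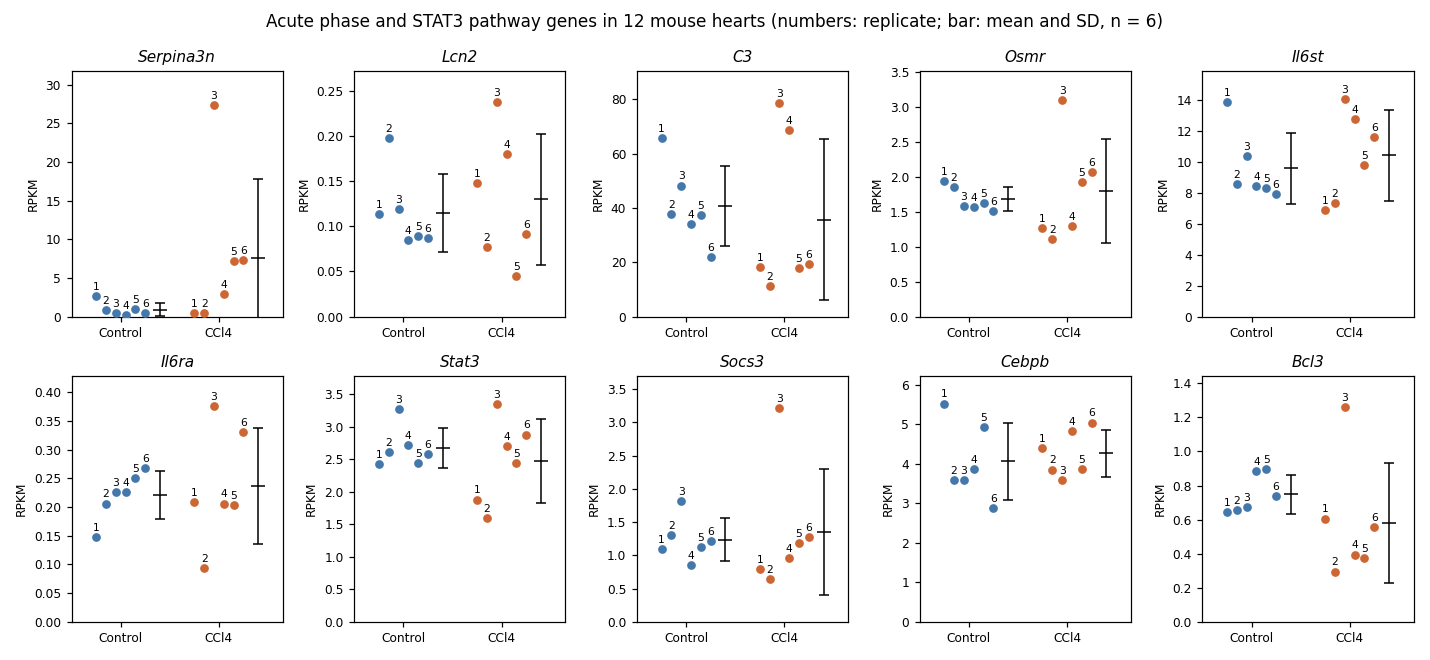
RPKM (vertical axes, from 0) of the 10 genes in 6 Control and 6 CCl4 hearts; each point is a heart with its replicate number, and the black bars are mean and SD (n = 6), their lower ends stopping at the axis where the SD exceeds the mean. CCl4 replicate 3 is the highest point in all panels except Cebpb, and CCl4 replicates 3 to 6 lie above all Control hearts in Serpina3n.

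Ligands were scarce in all hearts. Il6, the founding cytokine of the family, was listed at 0 in 2 Control and 2 CCl4 hearts and at no more than 0.0576 RPKM in the other Control hearts. In CCl4 replicates 3, 5 and 6 it was at 0.479, 0.113 and 0.0985 RPKM, which is 56, 14 and 12 steps. These 3 hearts lay above all Control hearts and the other 3 CCl4 hearts did not (exact permutation p = 0.303, two-sided, on log2(RPKM + 1)). Cardiotrophin-like cytokine (Clcf1), the 1 ligand that could be tested, was at 0.633 ± 0.147 and 0.794 ± 0.176 RPKM (log2 fold change 0.14, SE 0.082, adjusted p = 0.603) and was higher than the Control median in 5 of the 6 CCl4 mice.

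The other 6 ligands were all below the filter. Lif, leukaemia inhibitory factor, peaked at 0.177 RPKM in CCl4 replicate 3, while the other CCl4 hearts were at 0.0232 to 0.055 RPKM and Control hearts at 0.0429 to 0.115 RPKM. Il27, whose receptor also uses gp130, was at 0.366, 0.154 and 0.254 RPKM in CCl4 replicates 3, 5 and 6. These values rested on 18, 8 and 13 steps. Control hearts were at 0 to 0.109 RPKM, on no more than 5 steps (exact permutation p = 0.171 between the groups). Cardiotrophin 1 (Ctf1) was at 0.54 ± 0.215 and 0.435 ± 0.183 RPKM and ciliary neurotrophic factor (Cntf) at 0.377 ± 0.244 and 0.225 ± 0.15 RPKM, with overlapping groups in both. Il11, a ligand made by fibroblasts, reached 0.103 RPKM in CCl4 replicate 3 and no more than 10 steps in any heart. Oncostatin M (Osm), the ligand of Osmr, was listed at 0 in 5 hearts and held no more than 4 steps in any.

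**Figure D2:**
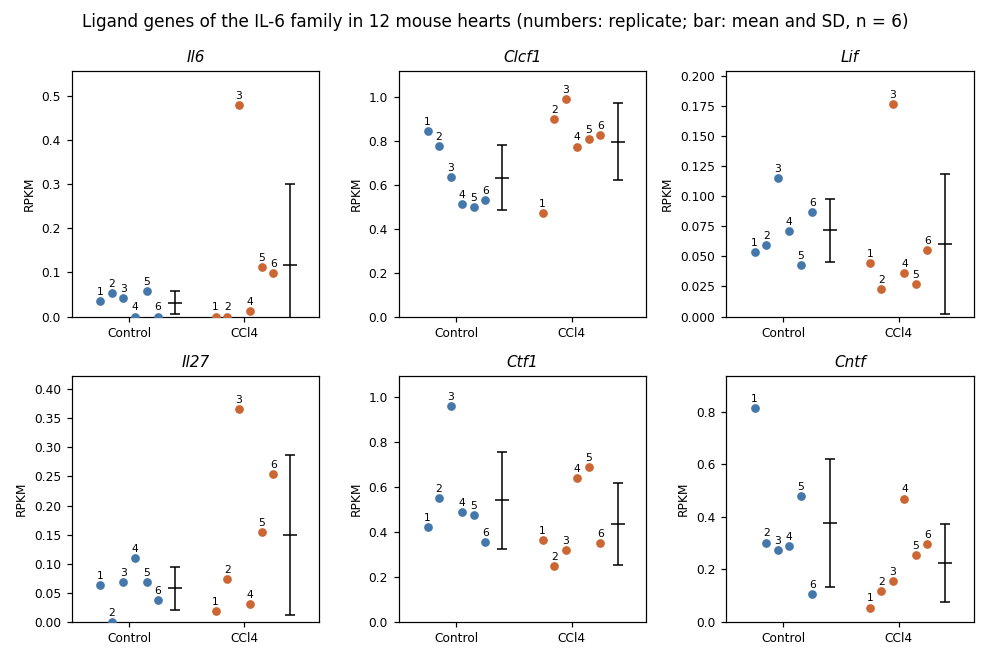
RPKM (vertical axes, from 0) of 6 ligand genes in each heart, with replicate numbers beside the points and mean and SD (n = 6) as black bars whose lower ends stop at the axis. Il6 and Il27 share their 3 highest hearts, CCl4 replicates 3, 5 and 6, while Ctf1 has its highest value in Control replicate 3.

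Among the receptors the shared chain Il6st was the most abundant, with means of 9.58 ± 2.27 RPKM (Control) and 10.4 ± 2.94 RPKM (CCl4; log2 fold change 0.093, SE 0.18, adjusted p = 0.898). Its Control values ran from 7.93 to 13.9 RPKM with a median of 8.5, and its CCl4 values from 6.9 to 14.1 RPKM with a median of 10.7. The high end was held by Control replicate 1 and CCl4 replicates 3 and 4, and CCl4 replicates 1 and 2 lay below all Control hearts. Osmr, the chain that binds oncostatin M, had means of 1.67 ± 0.173 RPKM (Control) and 1.79 ± 0.745 RPKM (CCl4; log2 fold change 0.023, SE 0.14, adjusted p = 0.97). Control hearts were tightly placed, from 1.51 to 1.93 RPKM. CCl4 hearts fell on both sides of them: replicates 3 and 6 were above (3.09 and 2.07 RPKM), replicates 1, 2 and 4 below (1.26, 1.11 and 1.29 RPKM) and replicate 5 within. Without CCl4 replicate 3 the log2 fold change of Il6st was 0.00436. Without the same heart that of Osmr was -0.095, and it was also negative under TPM scaling (-0.027).

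Il6ra, the chain that gives a cell its own response to interleukin-6, was close to the bottom of the range. It was at 0.148 to 0.268 RPKM in Control hearts (median 0.226) and 0.0933 to 0.375 RPKM in CCl4 hearts (median 0.208), or 32 to 155 steps (exact permutation p = 0.799, two-sided). CCl4 replicates 3 and 6 were above all Control hearts and replicate 2 below. Of the other receptors in the family, the Il11 receptor Il11ra1 was at 8.14 ± 1.07 and 7.33 ± 0.928 RPKM and the leukaemia inhibitory factor receptor Lifr at 2.32 ± 0.466 and 2.17 ± 0.209 RPKM. The ciliary neurotrophic factor receptor Cntfr was at 1.38 ± 1.23 and 1.22 ± 0.551 RPKM, with the highest values in Control replicate 1 (3.79 RPKM) and CCl4 replicate 4 (2.26 RPKM). The interleukin-27 chain Il27ra (0.4 ± 0.114 and 0.347 ± 0.145 RPKM) and Il31ra, listed at 0 in 10 hearts, were not tested. Of the 5 receptors tested 2 lay higher and 3 lower, and 0 passed. With median-of-ratios scaling it was 3 higher and 2 lower.

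Stat3, the transcription factor at the centre of the pathway, had means of 2.67 ± 0.313 RPKM (Control) and 2.47 ± 0.648 RPKM (CCl4; log2 fold change -0.098, SE 0.12, adjusted p = 0.827). Control hearts ran from 2.43 to 3.27 RPKM with a median of 2.59, and CCl4 hearts from 1.6 to 3.35 RPKM with a median of 2.57. CCl4 replicate 3 was the highest of the 12 hearts and CCl4 replicates 1 and 2 (1.88 and 1.6 RPKM) the only ones below all Control hearts. Without CCl4 replicate 3 the log2 fold change of Stat3 was -0.166. Of 10 tested Janus kinases and STATs, Stat3 included, 4 lay higher and 6 lower with a median of -0.074, and 0 passed. Stat5b, a STAT of growth hormone and cytokine receptors, had the smallest p among them, at 3.24 ± 0.546 and 2.75 ± 0.445 RPKM (adjusted p = 0.596), before Jak3 (2.66 ± 0.448 and 2.34 ± 0.517 RPKM) and Stat5a (0.532 ± 0.0892 and 0.458 ± 0.0771 RPKM).

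Socs3, the inhibitor that STAT3 induces and that blocks gp130 in return, is often read as a gauge of recent STAT3 activity. It was at 0.859 to 1.82 RPKM in Control hearts (median 1.16) and 0.645 to 3.22 RPKM with CCl4 (median 1.08), for a log2 fold change of 0.0068 (SE 0.19, adjusted p = 0.993). CCl4 replicate 3 alone lay above the Control hearts, at 3.22 RPKM or 446 steps, and the next CCl4 heart was at 1.28 RPKM. CCl4 replicates 1 and 2 (0.795 and 0.645 RPKM) lay below all Control hearts. Without CCl4 replicate 3 the log2 fold change of Socs3 was -0.177. The brakes of the pathway, Socs3 included, held 8 tested genes, 3 higher and 5 lower with a median of -0.072, and 0 passed. Ptpn6, the phosphatase SHP-1 of blood cells, had the smallest p: it was at 4.15 ± 0.681 and 6.85 ± 4.35 RPKM (0.47, SE 0.26, adjusted p = 0.548), and at 15.3 RPKM in CCl4 replicate 3, without which the log2 fold change was 0.232. Ptpn2, a phosphatase of nuclear STATs, was at 5.88 ± 0.584 and 5.27 ± 1.1 RPKM and the growth hormone brake Socs2 at 1.39 ± 0.189 and 1.2 ± 0.38 RPKM.

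Bcl3, an atypical IkB protein that works in the nucleus with NF-kB subunits and is a target of STAT3, was split between hearts. It was at 0.645 to 0.895 RPKM in Control hearts (median 0.703). CCl4 replicate 3 was above all of them at 1.26 RPKM, and the other 5 CCl4 hearts were all below, at 0.295 to 0.606 RPKM or 29 to 77 steps. The log2 fold change was -0.169 (SE 0.12, adjusted p = 0.649) over all hearts and -0.277 without CCl4 replicate 3 (adjusted p = 0.155). Without that heart Bcl3 was the 1 member whose groups did not overlap, where 1.93% of all genes tested did not (1.9% with all CCl4 hearts lower); as deposited its groups overlapped, and the heart was singled out after its values were seen. Endothelial markers lay lower in CCl4 hearts in 10 of 10 genes, with a sum of 334 to 422 RPKM in the Control group and 252 to 320 RPKM in the CCl4 group. Over the 12 hearts their mean had r = 0.72 with Bcl3 (permutation p = 0.0078, adjusted over 100 relations 0.064) and rho = 0.72 (permutation p = 0.011, adjusted 0.16), and r = 0.5 without CCl4 replicates 2 and 4; within groups r was 0.57 in Control and 0.83 in CCl4 hearts. In the endothelial sum Fabp4 alone held 199 ± 24.7 RPKM (Control) and 145 ± 13 RPKM (CCl4). The relation was chosen after its values were seen. Within CCl4 hearts r of Bcl3 was 0.85 with the macrophage and -0.81 with the cardiomyocyte markers. Within Control hearts these were -0.054 and 0.53. The part of these cell types in the Bcl3 values was not tested. With limma's array weights, which give less weight to hearts that vary more, Bcl3 (-0.326, adjusted p = 0.0107) and Serpina3n (2.05, adjusted p = 0.00428) passed. They were 2 of the 8 tested members, where 2249 of all 14087 genes passed. Of the 10 tested NF-kB genes 2 lay higher and 8 lower with a median of -0.076, where 65.7% of all genes lay lower. When mitochondrial RNA did not count towards library size 6 of 11 lay higher, as did 8614 of all 15518 genes. Nfkbib, an inhibitor of NF-kB, was at 5.75 ± 0.469 and 4.85 ± 0.352 RPKM (-0.205, SE 0.074, adjusted p = 0.363) and was lower than the Control median in all 6 CCl4 mice. Rel and Relb, subunits of NF-kB, were at 0.809 ± 0.21 and 0.627 ± 0.223 RPKM and at 1.25 ± 0.251 and 1.09 ± 0.405 RPKM.

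Cebpb, a bZIP factor of the acute phase response first described as a nuclear factor for interleukin-6, stayed within the Control range. Cebpb was at 2.88 to 5.52 RPKM in Control hearts (median 3.72) and 3.59 to 5.04 RPKM with CCl4 (median 4.13), so that every CCl4 heart lay within the Control range (log2 fold change 0.071, SE 0.12, adjusted p = 0.885). It was also the 1 member in which CCl4 replicate 3 was not the highest heart, being the lowest of the CCl4 group at 3.59 RPKM. Its relative Cebpd was above the Control median of 1.6 RPKM in 6 of 6 CCl4 hearts, at 2.03 ± 1.15 and 2.91 ± 0.821 RPKM (0.40, SE 0.19, adjusted p = 0.507), though Control replicate 1 had the highest value of all at 4.35 RPKM. Cebpg, a dimer partner, was at 3.96 ± 0.39 and 3.83 ± 0.899 RPKM, and the stress factor Ddit3 at 41.6 ± 5 and 45.5 ± 8.88 RPKM.

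Of 18 tested STAT3 targets, a list that includes Socs3, Bcl3, Cebpb, Osmr and Stat3 itself, 9 lay higher and 9 lower with a median of -0.024, and 0 passed. Under TPM scaling 5 lay higher and 13 lower. Timp1, the inhibitor of matrix metalloproteinases, was at 2.07 ± 0.812 and 7.67 ± 9.38 RPKM (0.99, SE 0.48, adjusted p = 0.507), and at 26.1, 7.47 and 6.78 RPKM in CCl4 replicates 3, 5 and 6. Without CCl4 replicate 3 its log2 fold change was 0.546. The cyclin Ccnd1 was at 8.38 ± 2.45 and 5.43 ± 1.85 RPKM (-0.54, SE 0.22, adjusted p = 0.422) and was lower than the Control median in all 6 CCl4 mice.

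**Figure D3:**
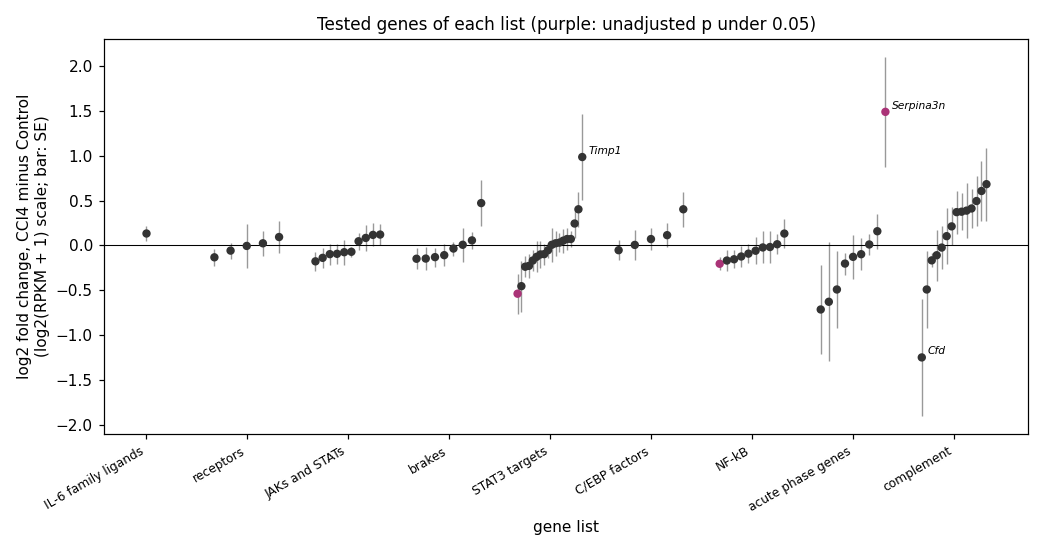
Log2 fold change (CCl4 minus Control, log2(RPKM + 1) scale) of each tested gene in 9 lists (a gene can be in more than 1), with its SE as a grey bar; purple marks an unadjusted p under 0.05 and genes beyond 0.9 in either direction are named. Most genes of the receptors, kinases, brakes and NF-kB lists lie close to 0, and Serpina3n, Timp1 and Cfd lie farthest from it.

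Serpina3n, a secreted serine protease inhibitor of the acute phase and the mouse counterpart of human alpha-1-antichymotrypsin, differed most between hearts. Control hearts were at 2.61, 0.801, 0.419, 0.215, 0.961 and 0.46 RPKM in replicates 1 to 6. CCl4 hearts were at 0.434, 0.464, 27.4, 2.93, 7.21 and 7.33 RPKM in replicates 1 to 6, from 38 steps in replicate 2 to 2715 steps in replicate 3. So 4 of 6 CCl4 hearts lay above all Control hearts, and replicates 1 and 2 lay below the Control median of 0.631 RPKM. The log2 fold change was 1.49 (SE 0.61), with an unadjusted p of 0.0291 and an adjusted p of 0.419 in limma; 1.6% of all genes tested were higher at an unadjusted p under 0.05. The exact two-sided permutation test of the same gene gave p = 0.0649. Without CCl4 replicate 3 the log2 fold change was 0.995 (adjusted p = 0.341), and over all hearts left out in turn it stayed between 0.995 and 1.86.

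Serpina3n followed the fibroblast markers from heart to heart. The sum of 10 fibroblast markers (Pdgfra, Dcn, Lum, Col1a1, Col3a1, Tcf21, Dpt, Gsn, Pi16 and Postn) was at 359 to 806 RPKM in Control hearts and at 1370, 617, 711 and 828 RPKM in CCl4 replicates 3 to 6, against 393 and 397 RPKM in replicates 1 and 2. Of these markers 9 of 10 lay higher in CCl4 hearts. Over the 12 hearts log2(RPKM + 1) of Serpina3n and the mean of the marker list had a Pearson r of 0.97 (permutation p = 2e-05, adjusted over 100 such relations 0.0015) and a Spearman rho of 0.85 (permutation p = 0.00086, adjusted 0.043). Leaving out CCl4 replicates 3 and 6, the hearts farthest from the median, gave r = 0.93, and within groups r was 0.88 in Control and 0.99 in CCl4 hearts. The relation was chosen after its values were seen. Summed macrophage markers were at 60.3 to 83.3 RPKM in Control hearts and 230, 110 and 146 RPKM in CCl4 replicates 3, 5 and 6, where r was 0.85 (permutation p = 0.0015, adjusted 0.025), rho 0.39 (permutation p = 0.21, adjusted 0.68) and r -0.86 within Control and 0.93 within CCl4 hearts. The part of these cell types in the Serpina3n values was not tested.

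By pattern over the 12 hearts the genes closest to Serpina3n, of 9647 compared, were Scpep1os (r = 0.985, rho = 0.8), Adamts2 (r = 0.985, rho = 0.85), Gng8 (r = 0.981, rho = 0.86) and Col16a1 (r = 0.98, rho = 0.92). They were picked for these values, which are a description. Adamts2, the protease that trims procollagen, was at 1.56 ± 0.609 RPKM in Control and 9.92, 2.58, 4.59 and 5.74 RPKM in CCl4 replicates 3 to 6. Col16a1, a fibril-associated collagen, was at 3.12 ± 1.19 and 21.4, 3.99, 8.86 and 11.7 RPKM in the same hearts. Gng8 encodes a G protein gamma subunit, and Scpep1os is an antisense gene whose reads cannot be told from those of the other strand where the strand setting is not given.

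**Figure D4:**
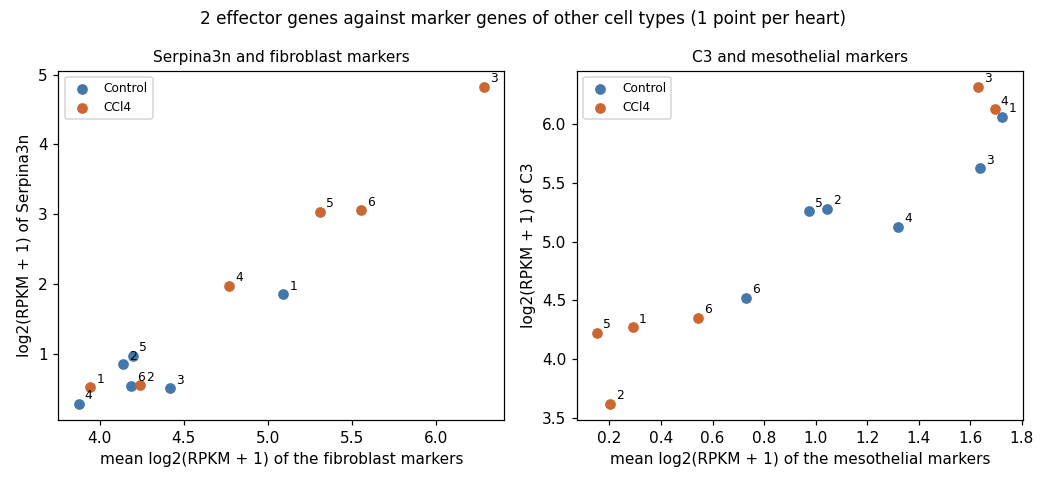
Each point is a heart with its replicate number; the horizontal axes give the mean log2(RPKM + 1) of a marker list and the vertical axes log2(RPKM + 1) of Serpina3n (left, fibroblast markers) or C3 (right, mesothelial markers). Serpina3n climbs with the fibroblast markers (r = 0.97) and C3 with the mesothelial markers (r = 0.95), with Control and CCl4 hearts along the same course in both panels.

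C3, the central protein of the complement cascade, was the most abundant member and had another order of hearts. Control hearts were at 65.6, 37.8, 48.2, 33.9, 37.2 and 22 RPKM in replicates 1 to 6, and CCl4 hearts at 18.3, 11.3, 78.6, 68.6, 17.7 and 19.4 RPKM. CCl4 replicates 3 and 4 were thus above all Control hearts and the other 4 CCl4 hearts below all of them, with nothing in between. Means were 40.8 ± 14.8 and 35.7 ± 29.7 RPKM (log2 fold change -0.49, SE 0.43, adjusted p = 0.738), and the log2 fold change was -0.792 without CCl4 replicate 3, -0.753 without replicate 4 and -0.253 without replicate 2. The same hearts were high and low in the mesothelial markers, genes of the cell layer that covers the heart. Their sum over 7 genes (Msln, Upk3b, Upk1b, Lrrn4, Wt1, Krt19 and Krt8) was at 4.88 to 19 RPKM in Control hearts, at 16.2 and 18.4 RPKM in CCl4 replicates 3 and 4, and at 0.835 to 3.31 RPKM in the other CCl4 hearts. All 7 lay lower in CCl4 hearts, and the mesothelin gene Msln was listed at 0 in CCl4 replicate 5. C3 and the mean of these markers had r = 0.95 (permutation p = 3e-05, adjusted over 100 relations 0.0015) and rho = 0.92 (permutation p = 6e-05, adjusted 0.006), and r = 0.94 without CCl4 replicates 5 and 2. Within groups r was 0.89 in Control and 0.97 in CCl4 hearts. With the atrial markers r was 0.77 (permutation p = 0.0042, adjusted 0.047) and rho 0.66 (permutation p = 0.022, adjusted 0.2). With the adipocyte markers r was 0.68 (permutation p = 0.017, adjusted 0.1) and rho 0.82 (permutation p = 0.0017, adjusted 0.056). With markers of T and B cells r was 0.63 (permutation p = 0.024, adjusted 0.12), 0.33 within Control and 0.96 within CCl4 hearts. These relations were chosen after their values were seen, and the part of these tissues and cells in the C3 values was not tested. With the mean of the atrial markers as a covariate in the fit, the log2 fold change of C3 was -0.0798 (SE 0.316, adjusted p = 0.954), against -0.492 without it.

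Of 14 tested complement genes, C3 included, 9 lay higher and 5 lower, with a median of 0.292 against -0.048 for all genes, and 0 passed. The receptor C3ar1, carried by myeloid cells, was at 0.533 ± 0.15 and 1.19 ± 1.04 RPKM (0.41, SE 0.22, adjusted p = 0.536) and reached 3.17 RPKM in CCl4 replicate 3, without which the log2 fold change was 0.205. Cfd, the protease factor D that adipocytes secrete, was at 16.5 RPKM in Control replicate 1 and 16 RPKM in CCl4 replicate 4 and at 0.425 to 1.35 RPKM in the other 5 CCl4 hearts (-1.25, SE 0.65, adjusted p = 0.532). Summed adipocyte markers were highest in the same 2 hearts, at 35 and 41 RPKM, but that list includes Cfd. With the atrial covariate the log2 fold change of Cfd was -0.469. Properdin (Cfp) was at 2.1 ± 0.16 and 1.77 ± 0.266 RPKM and lower than the Control median in all 6 CCl4 mice (-0.17, SE 0.078, adjusted p = 0.494).

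Lcn2, lipocalin 2, an iron-siderophore binding protein of neutrophils and stressed epithelia and a common sign of inflammation in injured hearts, was the least abundant member. Its 12 values rested on 6 to 30 steps each. Control hearts were at 0.0845 to 0.198 RPKM (median 0.101) and CCl4 hearts at 0.0449 to 0.238 RPKM (median 0.12), and the groups overlapped (exact permutation p = 0.699, two-sided). CCl4 replicate 3 was highest here too. Summed neutrophil markers ran from 1.16 to 2.3 RPKM (Control) and from 1.18 to 3.13 RPKM (CCl4), with the primary granule genes Mpo and Elane at no more than 0.0376 RPKM in any heart. S100a9 and Csf3r were highest in CCl4 replicate 3, at 2.07 and 0.598 RPKM, and the part of neutrophils in the Lcn2 values was not tested.

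Most acute phase genes of the liver were too low in these hearts to be tested. Of the 25 genes listed 24 were in the table and 9 could be tested, of which 3 lay higher and 6 lower with a median of -0.128, and 0 passed. The 9 tested include the members Serpina3n, among the higher, and C3, among the lower. The serum amyloid genes Saa1 and Saa2, C-reactive protein (Crp) and the fibrinogen chains Fga, Fgb and Fgg were at no more than 0.0419 RPKM in any heart. Haptoglobin (Hp) was at 2.62 ± 2.34 and 1.23 ± 1.96 RPKM (-0.72, SE 0.49, adjusted p = 0.654) and hepcidin (Hamp), the iron hormone, at 4.16 ± 5.15 and 2.24 ± 3.86 RPKM. In both genes Control replicate 1 (5.52 and 13.9 RPKM) and CCl4 replicate 4 (5.17 and 10 RPKM) were the highest hearts of their groups. With the atrial covariate the log2 fold change of Hp was -0.148 and that of Hamp 0.167. The metalloreductase Steap4 was at 7.97 ± 1.13 and 6.83 ± 1.27 RPKM and lower than the Control median in all 6 CCl4 mice (-0.20, SE 0.12, adjusted p = 0.6).

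The CCl4 hearts differed from each other in which members lay outside the Control range. CCl4 replicate 3 had 7 of the 8 tested members above the highest Control heart, where 45.1% of all genes were. This count was 5 with median-of-ratios scaling (24.2% of all genes) and with quantile normalization (24.4%). CCl4 replicates 1 and 2 each had 6 of the 8 below the lowest Control heart, where 47.0% and 60.6% of all genes were, and 4 and 5 with median-of-ratios scaling (11.3% and 18.4%). CCl4 replicate 4 had 2 above and 2 below, with 10.2% and 24.3% of all genes. CCl4 replicate 5 had 1 above and 2 below (12.1% and 17.0%), and CCl4 replicate 6 had 2 above and 2 below (22.9% and 10.6%). No tested member lay on the same side of all Control hearts in more than 5 of the 6 CCl4 hearts.

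**Figure D5:**
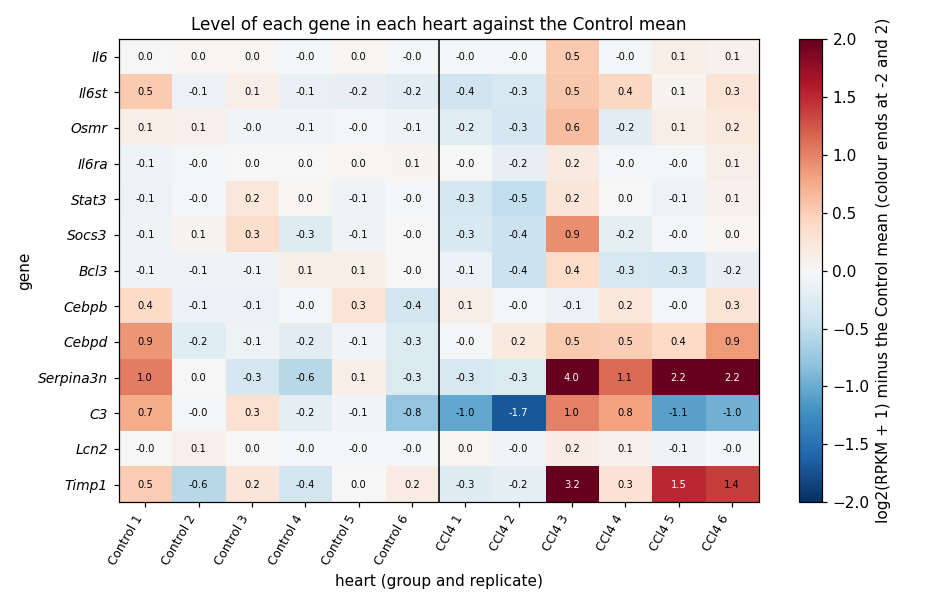
Colour and printed value give log2(RPKM + 1) of a gene (rows) in a heart (columns) minus its mean over the 6 Control hearts. The column of CCl4 replicate 3 is above 0 in all rows except Cebpb, CCl4 replicates 1 and 2 are below 0 in most rows, and C3 is below 0 in CCl4 replicates 5 and 6 where Serpina3n and Timp1 are above.

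Among the 45 pairs of members, Serpina3n with Osmr (r = 0.82, permutation p = 0.0021, adjusted 0.047; rho = 0.67, permutation p = 0.021, adjusted 0.11) and Osmr with Socs3 (r = 0.85, permutation p = 0.0016, adjusted 0.047; rho = 0.71, permutation p = 0.013, adjusted 0.1) passed by r and 0 pairs passed by rho. Without the 2 hearts farthest from the median r was 0.46 and 0.45. For Serpina3n with Osmr r was 0.82 within Control and 0.96 within CCl4 hearts. For Osmr with Socs3 it was -0.03 within Control and 0.95 within CCl4 hearts, and this relation rests on the CCl4 hearts. Both genes of this pair also ran beside the macrophage markers (Osmr r = 0.86, adjusted p = 0.024, rho = 0.44; Socs3 r = 0.83, adjusted p = 0.047, rho = 0.62, by permutation over 100 relations), as did Il6ra (r = 0.88, adjusted p = 0.011, rho = 0.66). Osmr and Il6st ran beside the fibroblast markers (r = 0.81 each, adjusted p = 0.026 and 0.025, rho = 0.66 and 0.77, by permutation). With the macrophage markers r within Control hearts was -0.67 (Osmr), 0.42 (Socs3) and 0.65 (Il6ra), and 0.97, 0.94 and 0.96 within CCl4 hearts. Without CCl4 replicates 3 and 6 it was 0.54, 0.54 and 0.71. With the fibroblast markers r was 0.65 (Osmr) and 0.93 (Il6st) within Control and 0.95 and 0.85 within CCl4 hearts. Without the same 2 hearts it was 0.48 and 0.75. None of these 5 relations passed by rho, and the part of these cell types in the values was not tested. Stat3 with Socs3 had r = 0.78 (permutation p = 0.0038, adjusted 0.057) and rho = 0.73 (permutation p = 0.0097, adjusted 0.1). For this pair r was still 0.78 without CCl4 replicates 1 and 2, and it was 0.71 within Control and 0.83 within CCl4 hearts. Cebpb had a negative r with Stat3, Socs3 and Bcl3 (-0.15, -0.28 and -0.19), none past the threshold.

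On GRCm38, in GENCODE release M21, the members lie apart from each other except for Stat3 (chromosome 11, 100885098 to 100939540) and Socs3 (chromosome 11, 117966079 to 117970047), and Lcn2 (chromosome 2, 32384633 to 32388252) and Cebpb (chromosome 2, 167688915 to 167690418), which share a chromosome. Serpina3n lies on chromosome 12 (104406729 to 104414329), C3 on chromosome 17 (57203970 to 57228136), Osmr on chromosome 15 (6813577 to 6874969), Il6st on chromosome 13 (112464070 to 112510086), Il6ra on chromosome 3 (89864059 to 89913196) and Bcl3 on chromosome 7 (19808462 to 19822770). Stat3 overlaps Stat5a, Cebpb overlaps Tmem189, and Bcl3 and Il6ra overlap gene models without a descriptive name, each on the other strand. With the strand setting of the counting not given, reads in those overlaps are uncertain.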

How the data were processed

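RNA of 12 mouse hearts was sequenced, 6 Control and 6 CCl4, with groups and replicate numbers taken from the sample titles. TRIzol extraction and a strand-specific mRNA kit come from the labels' protocols. The tools named by the submitters' processing notes are Trimmomatic 0.36 for trimming and Subread 1.5.1, with its featureCounts, on the build GRCm38; no aligner, annotation release or strand setting is given in the sources used here. RPKM values as deposited by the authors were used, 1 column for each heart. RPKM times exon length (GENCODE M21, 30270 symbols matched) gave steps: in each library 93.7% to 95.1% of the values at or under 30 steps were within 0.05 of a whole number. The design gives 6 mice per group, and p-values measure the spread between these hearts.

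Genes with at least 0.5 RPKM in at least 6 libraries (14087) were fitted with limma 3.58.1 (R 4.3.3; lmFit, eBayes with trend) on log2(RPKM + 1), which understates changes of low genes, with Benjamini-Hochberg adjustment over all tested genes. Genes below the filter had an exact permutation test over 924 splits, and correlations 100000 permutations. The fit was tested on simulated data with normal noise drawn independently for each gene, and changes put into genes of higher Control level. There 37.3% of 1.5-fold, 89.6% of 2-fold and 98.5% of 4-fold changes passed, and 9 unchanged genes did. The simulation held no shift shared by many genes of a heart, so these shares need not hold for the real hearts. The named genes are the members, the ligands and receptors of the family, up to 3 other genes of smallest p from each further pathway list, the 4 tested genes with the highest r with Serpina3n (mean of at least 1 RPKM, descriptive symbols), and markers as summed levels; 1 gene is not reported here. Saa1, Saa2, Crp, the fibrinogen chains and the Serpina3 neighbours were named outside this rule, after their values were seen. Members and lists were chosen with earlier results of these data known. Same-numbered hearts were not paired: the correlation of their deviations ran from -0.474 to 0.232. Python 3.11.15, pandas 2.3.3, numpy 2.4.6, scipy 1.17.1 and matplotlib 3.10.9 made tables and plots. Alternatives covered the pseudocount, filter, scaling, weights, robust fit, replicate block, covariates, a rank-sum test and each heart left out.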

Additional observations from a re-analysis of the deposited data

Results flagged for a closer look

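Of 86 groups of 6 values looked at, for 43 genes, 21 had a highest or lowest heart far from the next. Its gap to the next heart was, as a share of the group's range, over Dixon's 95% critical value. Chance gives about 1 group in 20 (5%) over that value where groups are independent and values normal. These are unlogged RPKM of the same 12 hearts, partly in genes picked for a small p, so 21 of 86 cannot be set against 5%. CCl4 replicate 3 was that heart in 8 of them. It stood at 27.4 RPKM in Serpina3n (next heart 7.33), 3.22 in Socs3 (1.28), 1.26 in Bcl3 (0.606), 0.479 in Il6 (0.113) and 0.177 in Lif (0.055). It stood likewise at 15.3 RPKM in Ptpn6 (6.76), 26.1 in Timp1 (7.47) and 3.17 in C3ar1 (1.28). Its summed fibroblast and macrophage markers were also the highest of the 12 hearts (1370 and 230 RPKM) and its cardiomyocyte markers the lowest (18000 RPKM), and their part in these values was not tested.

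Control replicate 1 stood apart in 6 groups. It was highest in Serpina3n at 2.61 RPKM (next heart 0.961), Lifr at 3.27 (2.21), Cntfr at 3.79 (1.46), Cebpd at 4.35 (1.79) and Hamp at 13.9 (4.68), and lowest in Ptpn6 at 2.86 (4.12). CCl4 replicate 4 was highest of its group in Cntfr at 2.26 RPKM (1.21), Hp at 5.17 (1.14), Hamp at 10 (1.72) and Cfd at 16 (1.35). These 2 hearts had the highest summed atrial markers (15100 and 11700 RPKM). Control replicate 3 was highest of its group in Stat3 at 3.27 RPKM (2.72) and Ctf1 at 0.958 (0.551), and Control replicate 2 in Lcn2 at 0.198 (0.119), a value of 16 steps.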

How the results depend on the processing

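Over the alternatives run, members passing the adjusted threshold numbered 0 except with array weights. Those gave 2 of the 8 tested members and 2249 of 14087 genes, and 3 members and 4527 genes at an unadjusted p under 0.05. An atrial covariate gave 21 genes, and leaving out each heart in turn gave 0 to 46 genes (30 without Control replicate 1, 46 without CCl4 replicate 1, 1 without CCl4 replicate 4, 2 without CCl4 replicate 6). Members at an unadjusted p under 0.05 numbered 0 by the rank-sum test and 0 to 1 over left-out hearts, with 0 without Control replicates 3, 4 and 6 and CCl4 replicates 5 and 6. Members whose groups did not overlap numbered 0 to 1, the 1 being Bcl3 without CCl4 replicate 3. With the replicate block 0 genes and 0 members passed, 1060 genes and 1 member were at an unadjusted p under 0.05, and hearts share only a number. The adjusted p of Serpina3n ran from 0.00428 to 0.727.

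The cause of the following changes of sign was not tested. The log2 fold change of Socs3 was -0.0403 and -0.00884 with pseudocounts of 0.1 and 0.5, -0.0399 with TPM and -0.177 to 0.0943 over left-out hearts. Osmr was at -0.0267 with TPM and -0.0949 to 0.0963 over left-out hearts. With array weights Lcn2 was at -0.0441 and Il6ra at -0.00904, and over left-out hearts they ran from -0.00926 to 0.0396 and from -0.0165 to 0.0496. Cebpb ran from -0.00164 to 0.148 over left-out hearts. Cntfr was at 0.0684 and 0.0177 with those pseudocounts, 0.0292 with median-of-ratios scaling, 0.0161 with quantile normalization, 0.0635 without mitochondrial RNA, 0.174 with array weights, 0.249 with the atrial covariate and -0.123 to 0.221 over left-out hearts. Lifr was at 0.00812 without mitochondrial RNA, 0.0159 with array weights and -0.0866 to 0.016 over left-out hearts. Cebpg was at 0.0198 without mitochondrial RNA and 0.0158 with array weights, and Hamp at 0.167 with the atrial covariate. Values under alternatives were counted for single genes and for the relations of Serpina3n with fibroblast and C3 with mesothelial markers. Of these 840 were held unchanged, 36 changed sign and 10 single-gene values passed, all with array weights. Unchanged meant the same sign and side of the threshold for tested genes. For Lcn2 and Il6ra it meant the same sign and a shift under the SD within groups. For the relations it meant a positive r at a permutation p under 0.05. The relation of Serpina3n with fibroblast markers kept r between 0.95 and 0.98 and that of C3 with mesothelial markers between 0.93 and 0.96, under alternatives chosen after seeing the data. Depth limits Lcn2, Il6, Il11, Il27 and Osm, which rest on few steps in most hearts.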
